A study of Mus musculus with 38 samples.

Results

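The livers of male CD-1 mice fed the triazole fungicide triadimefon for 4 days were compared with the livers of mice given control feed for the same time. The comparison rests on 6 of the 38 Affymetrix mouse 430 2.0 arrays of the series, chosen by their titles: 3 arrays of triadimefon livers and 3 of control livers, each given in the labels as a biological replicate. Triadimefon, which the labels spell tridimefon, was fed at 1800 ppm, for an average intake of 257.1 ± 33.5 mg/kg/day over the treatment, and the mice were 6 to 8 weeks old. CD-1 is an outbred stock, so that animals of 1 group also differ in genotype. Set beside these were mice of the same experiment fed triadimefon for 30 days at the same dose with their own 30 day controls (3 and 3 arrays), mice fed the related triazole propiconazole at 2500 ppm for 4 days (3 arrays), and, from an experiment with its own controls, mice fed the barbiturate phenobarbital at 850 ppm for 4 days (5 and 5 arrays).

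Triazole fungicides block the sterol demethylase of fungi, a cytochrome P450 whose mammalian counterpart, Cyp51, works in the synthesis of cholesterol from lanosterol. In rodent liver many triazoles also act on the nuclear receptors CAR and PXR, which switch on P450s, transferases and transporters that clear foreign compounds. When sterols run short in the endoplasmic reticulum, the factor SREBP2 is released and raises transcription of the enzymes that make cholesterol. The liver also stores retinoids, and Cyp26a1, a P450 that degrades retinoic acid, is a classical retinoic acid target.

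Values are log2(intensity + 16) after quantile normalization, so that 4.00 is the lowest possible value, and a level is compared only within a gene. A gene was called at a limma adjusted p under 0.05 over 17729 genes, and all adjusted p-values are from that fit, in which all 38 arrays share 1 estimate of spread. Of these genes 373 were higher (2.1%) and 292 lower (1.65%) in triadimefon livers, 3.75% in all, and 1859 genes (10.5%) had all 3 triadimefon arrays above all 3 controls while 1577 (8.9%) had them below. As deposited, without normalization, the split was 1562 higher and 112 lower, with the median gene shifted by 0.17, and with median scaling 260 and 127. Called genes were therefore not balanced in the same way on every scale, and changes are relative to the median gene. The counts of called members of every gene list below are to be read against the 2.1% higher and 1.65% lower among all genes. Beside a gene list, its counts as deposited and with median scaling are given where they differ by over 1.5 times. A fit on these 6 arrays alone called 0 genes (2553 had an unadjusted limma p under 0.05, against 3226 in the 38-array fit). Leaving out 1 array at a time left 216 to 852 called genes, and 117 of the 665 stayed called in all 6 such fits. The median deposited intensity was 26.5 to 28.5 on triadimefon arrays and 20.4 to 25.2 on control arrays, and the hepatocyte marker Ahsg, fetuin, was high in both groups (13.21, 13.47 and 13.36 against 13.39, 13.48 and 13.47 in controls). Triadimefon replicate 3 stood nearest to the controls (mean r of 0.959 with them, against 0.936 and 0.945 for replicates 1 and 2). Of the 340 genes called higher without overlap, replicate 1 was the lowest triadimefon array in 57, replicate 2 in 91 and replicate 3 in the rest, the largest share.

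P450s that clear drugs, of the CYP2B and CYP2C families, were among the genes that rose. Among the 20 enzymes of the CYP2B, CYP2C and CYP3A families that were measured, 6 rose and 0 fell, with a median change of 0.36 against 0.00 for all genes. Cyp2c55, a P450 of the arachidonic acid and drug metabolising 2C family, had 12.63, 12.74 and 11.56 on the triadimefon arrays, against 6.55, 7.23 and 7.44 on the controls. Every triadimefon array was more than 4 units above every control, with replicate 3 the lowest. Its change of 5.24 ± 0.32 (SE) was 37.8-fold (adjusted p = 1.2e-12). Cyp2b10, the usual readout of CAR in mouse liver, had 12.89, 12.98 and 12.05 in triadimefon livers and 8.97, 7.97 and 7.69 in controls, a 21.6-fold rise (4.43 ± 0.45, adjusted p = 2.4e-07). Again the groups were far apart and replicate 3 was the lowest treated array. Cyp2c37 had 10.17, 9.40 and 8.25 against 6.76, 7.18 and 5.76 in controls, a 6.54-fold rise (adjusted p = 0.0014). The abundant Cyp2c54 and Cyp2c50 rose 2.73-fold and 1.63-fold (adjusted p = 4.4e-05 and 1.9e-05), without overlap between the groups. Cyp2c65, near the floor in controls (4.00, 4.00 and 4.25), had 7.77, 6.80 and 5.01 in triadimefon livers, at least 1.31-fold higher (adjusted p = 9.5e-04). Its rise was thus uneven, with replicate 3 below the background of 6.13. None of these 6 calls ended when any 1 of the 6 arrays was left out. Cyp3a11, the main mouse PXR target among the P450s, was at 13.06, 12.97 and 12.99 in triadimefon livers and 13.15, 13.11 and 13.08 in controls, a change of -0.11 with a 95% interval of -0.19 to -0.02 and an adjusted p = 0.16. The AHR targets Cyp1a1 and Cyp1a2 changed by -0.03 and 0.48 (adjusted p = 1 and 0.12), and neither passed. Levels of the receptors themselves did not pass either: Nr1i3, which encodes CAR, changed by -0.35 and Nr1i2, which encodes PXR, by -0.18 (adjusted p = 0.84 and 0.83). The probe sets of Cyp2b10 and Cyp2c65 are of the kind that can also bind transcripts of related genes.

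Of 30 other CYP1 to CYP4 enzymes 2 fell (6.7%, against 1.65% of all genes) and 0 rose (0 fell as deposited, and 1 with median scaling). Cyp2u1, a fatty acid hydroxylase, had 6.00, 5.28 and 7.19 against 7.70, 7.50 and 8.38 in controls (-1.71 ± 0.43, adjusted p = 0.020). Cyp4v3, a fatty acid hydroxylase of the 4V family, changed by -0.76 (adjusted p = 0.036) with overlapping arrays, and by -0.50 without control replicate 3. The call of Cyp2u1 ended without triadimefon replicate 1 or 2 or control replicate 3 (adjusted p = 0.081 to 0.13), and that of Cyp4v3 without triadimefon replicate 1 or 2 or control replicate 2 or 3 (0.053 to 0.25).

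**Figure D1:**
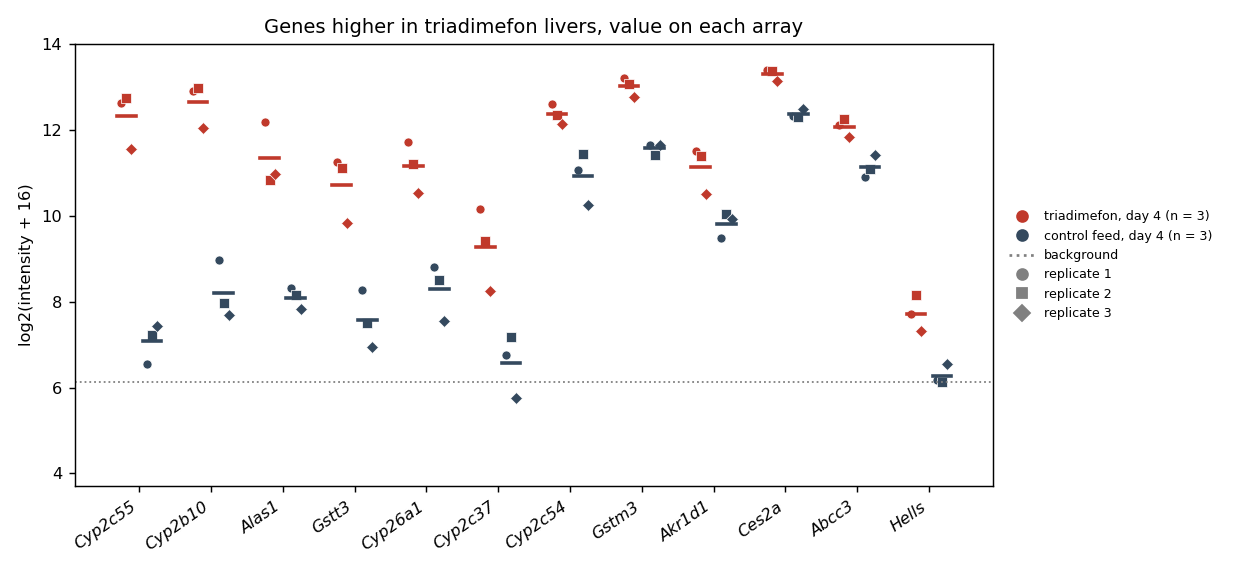
Values of 12 genes that were higher in triadimefon livers, as log2(intensity + 16) on each array, with triadimefon arrays left of control arrays, bars at group means, a marker for each replicate number and a dotted line at background. The 3 triadimefon arrays of each gene lie above its 3 controls, and replicate 3 is the lowest treated array of every gene shown but Alas1.

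P450s carry heme, and the enzyme that sets the rate of heme synthesis rose with them. Alas1 had 12.18, 10.84 and 10.98 in triadimefon livers and 8.31, 8.15 and 7.83 in controls, a 9.45-fold rise (3.24 ± 0.43, adjusted p = 4.0e-05). Here replicate 1 was the highest by more than 1 unit, and no array overlapped. Of the 19 measured genes of heme synthesis and electron transfer to P450s, the other called member was Cyb5a, cytochrome b5, with a change of 0.31 (adjusted p = 0.0025). The remaining 17 changed by -0.38 to 0.55 without passing, so the list median was 0.06 (3 members rose as deposited and 1 with median scaling).

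Other enzymes of the first phase of drug metabolism rose by less. Of 35 measured, 5 rose and 0 fell (median 0.08, with 11 higher as deposited). All triadimefon arrays lay above the controls in 12, against 10.5% of all genes. Ces2a, a carboxylesterase, had 13.41, 13.37 and 13.14 against 12.32, 12.30 and 12.49 in controls, a tight rise of 0.94 ± 0.08 (1.92-fold, adjusted p = 1.3e-08). Akr1d1, the reductase that shapes bile acids and steroid hormones, had 11.52, 11.39 and 10.51 against 9.47, 10.05 and 9.92 in controls (2.50-fold, adjusted p = 3.6e-04). Cbr1, a carbonyl reductase, rose 2.16-fold (adjusted p = 0.0045). Nqo1, a quinone reductase and NRF2 target, was below background in all controls and was at least 1.47-fold higher (adjusted p = 0.011). Ephx1, the microsomal epoxide hydrolase, changed by 0.58 (adjusted p = 0.046). Leaving out any 1 of the 6 arrays ended the call of Ephx1 (adjusted p = 0.052 to 0.20), and leaving out triadimefon replicate 2 or control replicate 1 ended that of Nqo1 (0.068 and 0.063).

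After quantile normalization, the transferases that conjugate glutathione rose as a larger share of their family than these first phase enzymes. As deposited this order did not hold, with 6 of 22 transferases and 11 of 35 first phase enzymes higher. Of 22 measured glutathione S-transferases 6 rose and 0 fell (median 0.31). All triadimefon arrays lay above the controls in 10, against 10.5% of all genes. Gstt3, of the theta class, had 11.24, 11.11 and 9.82 in triadimefon livers and 8.28, 7.50 and 6.95 in controls, an 8.88-fold rise (adjusted p = 1.6e-04). Gstm3, of the mu class, had 13.20, 13.07 and 12.77 against 11.65, 11.42 and 11.66 in controls (2.71-fold, adjusted p = 6.4e-07). Both kept the groups well apart. Gstm2 and Gstm4 rose 2.80-fold and 2.04-fold (adjusted p = 0.0092 and 0.017), while Gsta4 and Gstm5 were just inside the threshold (0.75 and 0.62, adjusted p = 0.048 each). Leaving out 1 array ended the calls of Gstm2 (triadimefon replicate 1 or 2, adjusted p = 0.055 each), Gstm4 (triadimefon replicate 2 or control replicate 1 or 2, 0.053 to 0.13), Gsta4 (any but triadimefon replicate 3, 0.070 to 0.18) and Gstm5 (any of the 6, 0.071 to 0.17). The probe set of Gstm3 can also bind related transcripts.

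Of 25 UDP-glucuronosyltransferases, sulfotransferases and the enzymes that supply their donors 5 rose and 0 fell (median 0.01), and with median scaling 1 of the 25 rose. Ugt2b34, a glucuronosyltransferase, had 12.74, 12.70 and 12.30 in triadimefon livers and 11.84, 11.99 and 11.99 in controls (1.55-fold, adjusted p = 3.3e-05). Ugt2b35 rose 1.38-fold (adjusted p = 0.025). Ugdh, which makes UDP-glucuronic acid, and Papss2, which makes the sulfate donor, changed by 0.69 and 0.91 (adjusted p = 0.043 and 0.044). Sult1d1, a sulfotransferase, rose by 1.26 with overlapping arrays (adjusted p = 0.022). Of these only Ugt2b34 kept its call in each fit without 1 array. The others lost it without triadimefon replicate 1 or 2 and up to 3 of the controls: Ugt2b35 also without control replicate 1 (adjusted p = 0.087 to 0.11), Ugdh without any control (0.052 to 0.22), Papss2 and Sult1d1 without control replicate 2 or 3 (0.11 to 0.25 and 0.076 to 0.17). Of 30 transporters 2 rose (6.7%, against 2.1% of all genes) and 0 fell (4 rose as deposited). Abcc3, which exports conjugates to the blood, had 12.10, 12.26 and 11.82 against 10.90, 11.08 and 11.42 in controls (1.90-fold, adjusted p = 0.0010). Abcb1a, P-glycoprotein, was below background in controls and was at least 1.19-fold higher (adjusted p = 0.0010). Abcc4 changed by 1.77 and did not pass (adjusted p = 0.056). The list of NRF2 responsive genes held 7 of 29 higher and 0 lower (4 higher with median scaling), and all 7 are drug metabolism genes given above: Nqo1, Gstm3, Cbr1, Abcc3, Gsta4, Ugdh and Ephx1.

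The enzymes of cholesterol synthesis made up the second large group. Their promoters are shown first, because SREBP2 works beside the factor NF-Y, which binds CCAAT boxes. Of the 20 measured genes 17 had an entry among RefSeq's promoters (GRCm38.p6, 250 bases before to 50 after the start), and 16 of these held CCAAT on either strand of at least 1 of their promoters, against 41.1% of all 27025 genes. That was 6 of 6 among genes called higher with an entry and 10 of 11 among those not called. A sterol element spelled TCACNCCAC, searched on both strands, was found in 1 of the 17, Hmgcs1, and in 1.44% of all genes. The 200 bases before the start of Mvk, chr5:114444069-114444268 on the plus strand, and of Cyp51, chr5:4104698-4104897 on the minus strand, are shown for the gene with the largest change and for the mammalian counterpart of the fungicide's target. Capitals mark CCAAT or its reverse complement, of which Mvk holds 5 and Cyp51 holds 1.
Mvk: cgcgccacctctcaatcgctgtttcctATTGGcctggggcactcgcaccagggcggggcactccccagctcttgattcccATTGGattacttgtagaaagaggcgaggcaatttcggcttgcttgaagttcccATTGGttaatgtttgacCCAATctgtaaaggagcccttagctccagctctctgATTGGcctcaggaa
Cyp51: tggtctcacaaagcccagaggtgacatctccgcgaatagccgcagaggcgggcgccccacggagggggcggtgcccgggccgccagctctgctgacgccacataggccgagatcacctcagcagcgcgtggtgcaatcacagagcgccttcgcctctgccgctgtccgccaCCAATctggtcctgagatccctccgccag
A match describes the letters only.

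Across the pathway 8 of the 20 measured genes rose, 0 fell and 18 had a positive change, with a median of 0.81. All triadimefon arrays lay above the controls in 13, against 10.5% of all genes. With median scaling 4 of the 20 rose (2 in the steps up to squalene with their side branch, 2 from squalene onward), and as deposited 13 (4 and 9), with 0 lower on either scale. In the first steps, from acetyl-CoA units to farnesyl diphosphate, Hmgcs1 changed by 0.64 (adjusted p = 0.20). Mvk, mevalonate kinase, had 8.85, 8.30 and 7.59 in triadimefon livers and 6.09, 4.00 and 7.18 in controls, a change of 2.49 ± 0.54 (adjusted p = 0.0078). The control spread was wide and only 1 control was above background, so no fold is given, and without control replicate 2 the change was 1.61. Pmvk and Mvd, the next 2 enzymes, changed by 0.64 and 0.95 (adjusted p = 0.32 and 0.084). Idi1, the isomerase that follows, had 11.67, 11.85 and 11.31 against 10.68, 10.46 and 10.12 in controls (2.28-fold, adjusted p = 0.015). Fdps, which builds farnesyl diphosphate, changed by 0.81 (adjusted p = 0.23), and Ggps1, on the side branch to geranylgeranyl diphosphate, by -0.08.

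Fdft1, squalene synthase, was counted with these first steps, in which 3 of 8 genes rose (Mvk, Idi1 and Fdft1). It had 11.05, 11.09 and 10.58 in triadimefon livers and 10.02, 9.99 and 9.74 in controls (1.98-fold, adjusted p = 0.025). From squalene onward 5 of 12 genes rose. Sqle, squalene epoxidase, had 11.35, 11.13 and 10.40 against 9.98, 9.21 and 9.35 in controls (2.73-fold, adjusted p = 0.0063). In Fdft1 and Sqle the groups did not overlap and replicate 3 was the lowest treated array. Lss, which closes the ring to lanosterol, had 10.37, 10.31 and 9.64 against 9.04, 8.84 and 8.95 in controls (2.24-fold, adjusted p = 0.038). Cyp51, the lanosterol demethylase, had 10.42, 10.82 and 10.45 against 9.94, 9.44 and 9.42 in controls (0.96 ± 0.25, 1.95-fold, adjusted p = 0.023). Its neighbours in the pathway followed a mixed course: Tm7sf2 and Lbr, the sterol reductases of the next step, changed by 0.72 and 0.51 without passing (adjusted p = 0.17 and 0.084). Msmo1, which oxidises methyl groups of the sterol ring, had 12.09, 12.04 and 11.44 against 11.08, 10.61 and 10.81 in controls (2.03-fold, adjusted p = 0.011). Nsdhl and Hsd17b7, its partners, changed by 0.52 and 0.81 (adjusted p = 0.21 and 0.088), and Erg28, which tethers them in yeast, by -0.04. Near the end Ebp and Sc5d changed by 0.01 and 0.49 (adjusted p = 1 and 0.43). Dhcr7, which makes cholesterol from its last precursor, had 10.80, 11.15 and 10.49 against 10.01, 9.84 and 9.60 in controls (1.99-fold, adjusted p = 0.017).

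Each of the 8 calls ended in at least 1 fit without an array: Mvk without triadimefon replicate 1 or control replicate 2 (adjusted p = 0.059 and 0.088), Sqle without triadimefon replicate 1 (0.053) and Msmo1 without triadimefon replicate 1 or control replicate 2 (0.074 and 0.061). Without triadimefon replicate 1 or 2 the calls of Idi1, Fdft1, Lss, Cyp51 and Dhcr7 also ended (0.055 to 0.17), as they did without control replicate 3 (0.060 to 0.073), those of Fdft1, Lss and Cyp51 without control replicate 2 (0.061 to 0.12) and that of Lss without control replicate 1 (0.072). Around the pathway, of 18 genes of SREBP2 control and cholesterol uptake 1 fell and 0 rose. The fallen gene was Mylip, a ubiquitin ligase that is switched on by LXR and limits cholesterol uptake, with 6.86, 7.33 and 7.59 in triadimefon livers and 8.59, 8.53 and 7.71 in controls (-1.02 ± 0.20, adjusted p = 0.0044, 0.050 without triadimefon replicate 1). Srebf2, which encodes SREBP2, changed by 0.40 (adjusted p = 0.76).

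**Figure D2:**
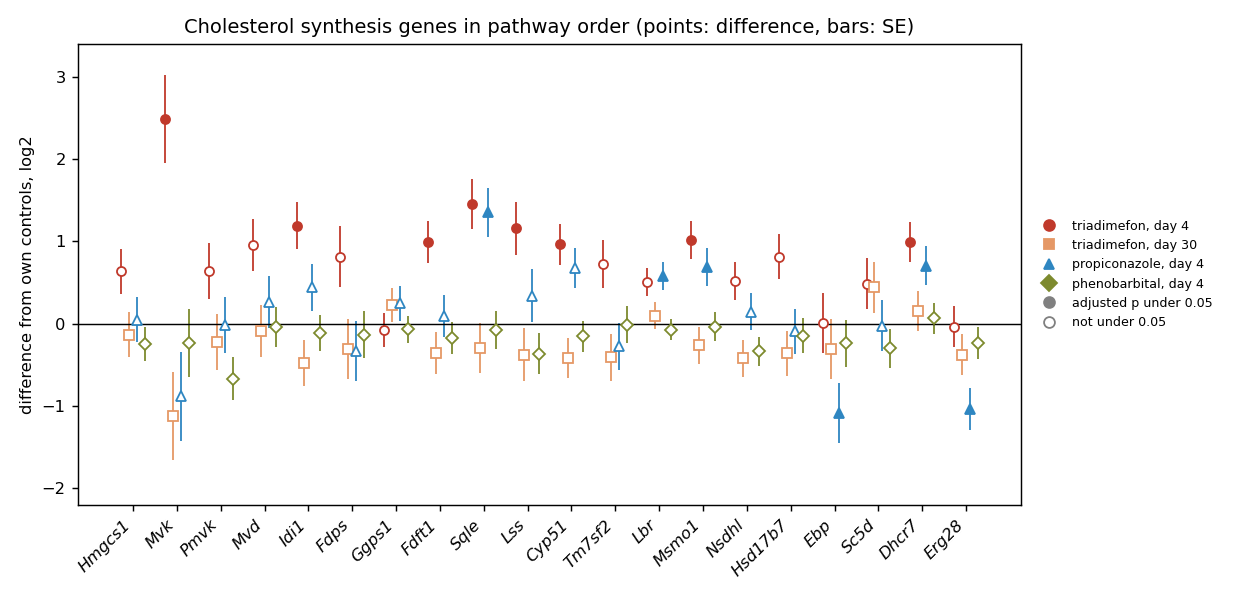
Differences from their own controls of the 20 cholesterol synthesis genes, in pathway order, for triadimefon on day 4, triadimefon on day 30, propiconazole on day 4 and phenobarbital on day 4 (log2, bars are SE, filled points have an adjusted p under 0.05). On day 4 of triadimefon 18 of the 20 points lie above 0 and 8 are filled, while on day 30 4 lie above 0 and none is filled.

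Among genes of retinoid metabolism the rise of Cyp26a1 stood alone: 1 of 33 measured genes rose (3.0%, against 2.1% of all genes) and 0 fell (3 rose as deposited). All triadimefon arrays lay above the controls in 5 genes and below them in 4, against 10.5% and 8.9% of all genes. Cyp26a1 had 11.71, 11.21 and 10.53 in triadimefon livers and 8.81, 8.50 and 7.55 in controls, a 7.27-fold rise (2.86 ± 0.48, adjusted p = 9.9e-04) that was called in each fit without 1 array. The groups were separated by more than 1 unit, and again replicate 3 was the lowest treated array. Its promoter is shown because it holds a direct repeat of the short site that retinoic acid receptors bind. The letters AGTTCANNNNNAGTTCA, searched on both strands, matched on the minus strand between 32 and 16 bases before the start, and matched in 8 of 27025 genes with RefSeq promoters (0.0296%). These letters are 1 fixed spelling of the repeat, the spelling that Cyp26a1 holds. The low share therefore measures how narrow the pattern is, and the match describes the letters only. The 200 bases before the start of Cyp26a1, chr19:37697608-37697807 on the plus strand of GRCm38.p6, are printed with the match in capitals.
Cyp26a1: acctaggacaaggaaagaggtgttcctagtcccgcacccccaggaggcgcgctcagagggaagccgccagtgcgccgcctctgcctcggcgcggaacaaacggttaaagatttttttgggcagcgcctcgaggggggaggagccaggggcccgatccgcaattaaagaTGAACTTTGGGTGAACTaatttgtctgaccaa

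Genes of fatty acid burning were lower more often than higher, although few passed. Of 37 measured genes of fatty acid oxidation and PPAR-alpha targets 2 fell (1 as deposited), 0 rose and 33 had a negative change, with a median of -0.20. All triadimefon arrays lay below the controls in 12, against 8.9% of all genes. Both called members are regulators. Ppara, the receptor that drives fatty acid oxidation in fasting liver, had 8.70, 9.57 and 9.87 in triadimefon livers and 10.67, 10.69 and 10.83 in controls, a 2.56-fold fall (-1.35 ± 0.33, adjusted p = 0.017). Ppargc1b, a coactivator of the same receptor and of oxidative metabolism, had 6.47, 7.27 and 6.59 against 8.41, 8.16 and 8.84 in controls (-1.69 ± 0.43, adjusted p = 0.022). In both genes every triadimefon array was below every control. On the synthesis side 2 of 39 genes rose and 2 fell (5 and 0 as deposited, 2 and 0 with median scaling). Elovl6, which lengthens palmitate, had 10.53, 10.72 and 9.58 against 8.83, 9.17 and 8.71 in controls (1.37 ± 0.33, adjusted p = 0.017), and Mttp, which loads lipid onto apolipoprotein B, changed by 0.57 (adjusted p = 0.046). G0s2, an inhibitor of fat breakdown, fell by 1.72 with overlapping arrays (adjusted p = 0.041), and Plin2, a lipid droplet coat, fell by 0.42 (adjusted p = 0.048). The call of Ppara ended without triadimefon replicate 1 (adjusted p = 0.15). Those of Ppargc1b, Elovl6, Mttp, G0s2 and Plin2 ended without triadimefon replicate 1 and without control replicate 1 (0.052 to 0.23), and also without triadimefon replicate 2 (all but Ppargc1b), triadimefon replicate 3 (Ppargc1b), control replicate 2 (Mttp and Plin2) or control replicate 3 (all but Mttp), with adjusted p = 0.051 to 0.18.

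Genes that respond to glucose and insulin showed 3 falls and 0 rises among 28 measured (median -0.24). As deposited 1 fell and 1 rose (median 0.02, against 0.17 for all genes), and with median scaling 1 fell. Foxo1, the insulin-restrained factor that drives glucose production, had 7.40, 7.86 and 8.07 in triadimefon livers and 9.07, 8.49 and 8.82 in controls (-1.02 ± 0.22, adjusted p = 0.0078). Ldha, lactate dehydrogenase, had 11.90, 11.63 and 12.49 against 12.69, 12.61 and 12.50 in controls (1.51-fold lower, adjusted p = 0.0080), with replicate 3 within 0.02 of the nearest control. Fbp1, fructose bisphosphatase, fell by 0.42 (adjusted p = 0.028). Without triadimefon replicate 1 the calls of Foxo1 (adjusted p = 0.078), Ldha (0.055) and Fbp1 (0.17) ended. The calls of Ldha and Fbp1 ended also without triadimefon replicate 2 (0.074 and 0.13), and that of Fbp1 without control replicate 2 or 3 (0.10 and 0.069). Mup3, a male-biased urinary protein, had 12.16, 12.11 and 12.24 against 12.61, 12.69 and 12.74 in controls (-0.51 ± 0.11, adjusted p = 0.0089), from a probe set that cross-hybridises within its family. It was the 1 called gene of 19 male-biased genes, 18 of which had a negative change (median -0.37), and 0 of the 19 were called on the other scales.

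Immediate early genes answer growth and stress signals within minutes. Of 36 measured 3 fell (8.3%) and 1 rose (2.8%), against 1.65% lower and 2.1% higher among all genes. Egr1, a growth factor induced transcription factor, had 5.20, 7.43 and 6.40 in triadimefon livers and 9.92, 9.01 and 10.38 in controls, the largest fall of the rule's named genes (-3.42 ± 0.90, 10.7-fold, adjusted p = 0.028). Nab2, a corepressor of Egr1 that Egr1 also induces, had 5.43, 4.53 and 4.48 against 7.02, 6.70 and 7.58 in controls, at least 1.96-fold lower (adjusted p = 0.0018). All triadimefon arrays of Nab2 were below background. Klf10, a TGF-beta induced factor, fell by 1.65 (adjusted p = 0.017). The riser was Gadd45b, a stress signalling protein and CAR partner, with 8.57, 7.92 and 5.19 in triadimefon livers and 4.00 on each control, at least 2.13-fold higher (adjusted p = 0.0049). The call of Egr1 ended without triadimefon replicate 1 or control replicate 1 or 3 (adjusted p = 0.074 to 0.16), that of Klf10 without triadimefon replicate 2 or control replicate 3 (0.068 and 0.064) and that of Gadd45b without triadimefon replicate 1 (0.055), while that of Nab2 did not end. Outside the list, Il1r1, the receptor of interleukin-1, had 4.62, 4.75 and 7.13 against 8.96, 7.33 and 8.07 in controls (-2.62 ± 0.58, adjusted p = 0.0091). Its other probe set changed in the opposite direction, and the call ended without triadimefon replicate 1 or 2 or control replicate 1 (0.053 to 0.084). Plcb3, a phospholipase that acts below G proteins, had 4.00, 4.14 and 4.00 in triadimefon livers and 6.70, 5.97 and 6.03 in controls, at least 1.07-fold lower (adjusted p = 1.5e-05), and 2 of its 3 controls were themselves below background.

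**Figure D3:**
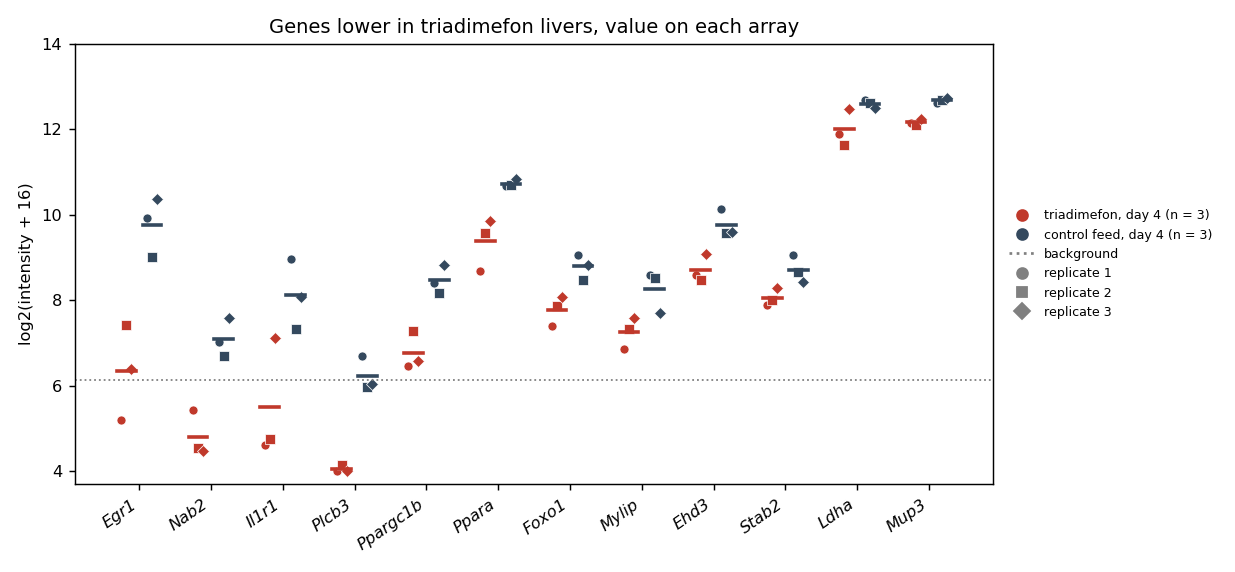
Values of 12 genes that were lower in triadimefon livers, as log2(intensity + 16) on each array, with triadimefon arrays left of control arrays, bars at group means, a marker for each replicate number and a dotted line at background. The 3 triadimefon arrays of each gene lie below its 3 controls, from Egr1 with a difference of -3.42 to Mup3 with -0.51.

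Genes of protein quality control leaned upward by small amounts. Of 33 proteasome subunits and assembly factors 6 rose and 0 fell, and all 33 changes were positive (0.05 to 0.46). All triadimefon arrays lay above the controls in 16, against 10.5% of all genes. Psmd1, a scaffold subunit of the regulatory particle, had 10.95, 10.89 and 10.70 in triadimefon livers and 10.51, 10.53 and 10.48 in controls (1.26-fold, adjusted p = 0.015). Psmb5, the chymotrypsin-like catalytic subunit, had 11.29, 11.33 and 11.16 against 10.94, 10.90 and 10.95 in controls (1.26-fold, adjusted p = 0.025). The other 4, Psma3, Psmg1, Psmd12 and Psmd2, changed by 0.30, 0.36, 0.34 and 0.25 (adjusted p = 0.030 to 0.048), and Psmd12 by 0.22 without control replicate 2. All 6 calls ended without triadimefon replicate 1 (0.10 to 0.19) and without triadimefon replicate 2 (0.053 to 0.16), and 5 ended without control replicate 2 (0.092 to 0.29), Psmd1 being the exception. The calls of Psma3 and Psmd2 ended also without control replicate 3 (0.068 and 0.13), and that of Psmb5 without control replicate 1 (0.056). With median scaling 0 of the 33 were called (median 0.30), and as deposited 25 (median 0.55). Of 26 heat shock proteins 1 rose (3.8%, against 2.1% of all genes), while 23 had a positive change (median 0.41). Hspa4, a cytosolic nucleotide exchange factor, was the called gene (0.52, adjusted p = 0.028). Its call ended without triadimefon replicate 1 or 2 or control replicate 1 or 2 (0.052 to 0.18). As deposited 6 of the 26 rose, and with median scaling 0. Of 34 genes of the unfolded protein and integrated stress responses limma called 0, with 8 at an unadjusted p under 0.05 and 27 positive changes (median 0.18). As deposited 8 of the 34 rose (median 0.47, against 0.17 for all genes), and with median scaling 0.

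Of 44 cell cycle genes 2 rose (4.5%, against 2.1% of all genes) and 0 fell (6 rose as deposited and 1 with median scaling). Hells, a chromatin remodeller of dividing cells, had 7.70, 8.16 and 7.31 in triadimefon livers and 6.17, 6.12 and 6.54 in controls (2.73-fold, adjusted p = 0.0014), and kept its call without any 1 array. Aurka, a mitotic kinase, was below background in both groups (adjusted p = 0.037, and 0.099 to 0.14 without triadimefon replicate 1 or 2 or control replicate 1 or 2). Mki67, the usual proliferation marker, was below background on every array (4.46, 5.58 and 4.00 in triadimefon livers and 4.00, 4.62 and 4.18 in controls). Of 30 acute phase proteins limma called 0 (6 at an unadjusted p under 0.05), and 19 had a negative change (median -0.10). All triadimefon arrays lay below the controls in 7 and above them in 2, against 8.9% and 10.5% of all genes. The summed intensity of the 30 ran from 101088 to 111234 in triadimefon livers and from 113586 to 125333 in controls. Orm3, an acute phase glycoprotein, had 9.42, 8.48 and 4.00 in triadimefon livers and 4.00 on each control (adjusted p = 0.11), so that replicate 3 could not be told from the controls.

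Markers of other liver cells were read on the same arrays, and in bulk tissue fewer cells of a type and less RNA per cell cannot be told apart. Of 16 sinusoidal endothelial markers 4 fell (25%, against 1.65% of all genes), 0 rose and 14 had a negative change (median -0.53). All triadimefon arrays lay below the controls in 2 of the 16, against 8.9% of all genes. Ehd3, a membrane trafficking protein of these cells, had 8.58, 8.48 and 9.08 in triadimefon livers and 10.13, 9.57 and 9.60 in controls (2.08-fold lower, adjusted p = 0.0067), a call that held without any 1 array. Stab2, a scavenger receptor, had 7.89, 8.00 and 8.29 against 9.06, 8.66 and 8.44 in controls (-0.66 ± 0.16, adjusted p = 0.018). Clec4g, a lectin, and Wnt2 fell with overlapping arrays (-0.82 and -1.50, adjusted p = 0.015 and 0.036), and Wnt2 was below background in triadimefon livers. The calls of Stab2, Clec4g and Wnt2 ended without triadimefon replicate 1 (adjusted p = 0.095 to 0.14) and without control replicate 1 (0.13 to 0.18), those of Stab2 and Clec4g without triadimefon replicate 2 (0.055 and 0.060), those of Clec4g and Wnt2 without control replicate 2 (0.060 and 0.14) and that of Wnt2 without triadimefon replicate 3 (0.13). The pan-endothelial Cdh5 and the lymphatic and sinusoidal Lyve1 changed by -0.11 and 0.08, and Pecam1 was at the floor of 4.00 on all 6 arrays. The summed intensity of the 16 ran from 2782 to 4218 in triadimefon livers and from 3856 to 6936 in controls, so the sums overlap. As deposited and with median scaling 2 of the 16 fell. The part of this shift in the other falls was not tested. Of 16 stellate cell markers Timp1 rose (at least 1.16-fold, adjusted p = 0.017) and Rgs5 fell (-0.61, adjusted p = 0.046), each losing its call without triadimefon replicate 2 (0.10 and 0.12) and control replicate 2 (0.074 and 0.18) and Rgs5 also without triadimefon or control replicate 1 (0.22 and 0.17). On the other scales 1 of the 16 rose and 0 fell. These stellate markers also leaned downward, with 13 negative changes (median -0.34) and 7 at an unadjusted limma p under 0.05. All triadimefon arrays lay below the controls in 2 and above them in 1, against 8.9% and 10.5% of all genes. Their summed intensity ran from 4394 to 5724 in triadimefon livers and from 5186 to 7411 in controls, again with overlap. Of 8 biliary markers Sox9 rose (1.66 ± 0.36, adjusted p = 0.0088, 0.072 without control replicate 2), and 2 of the 8 rose on the other scales. Of 15 Kupffer cell and macrophage markers limma called 0 (0 at an unadjusted p under 0.05).

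**Figure D4:**
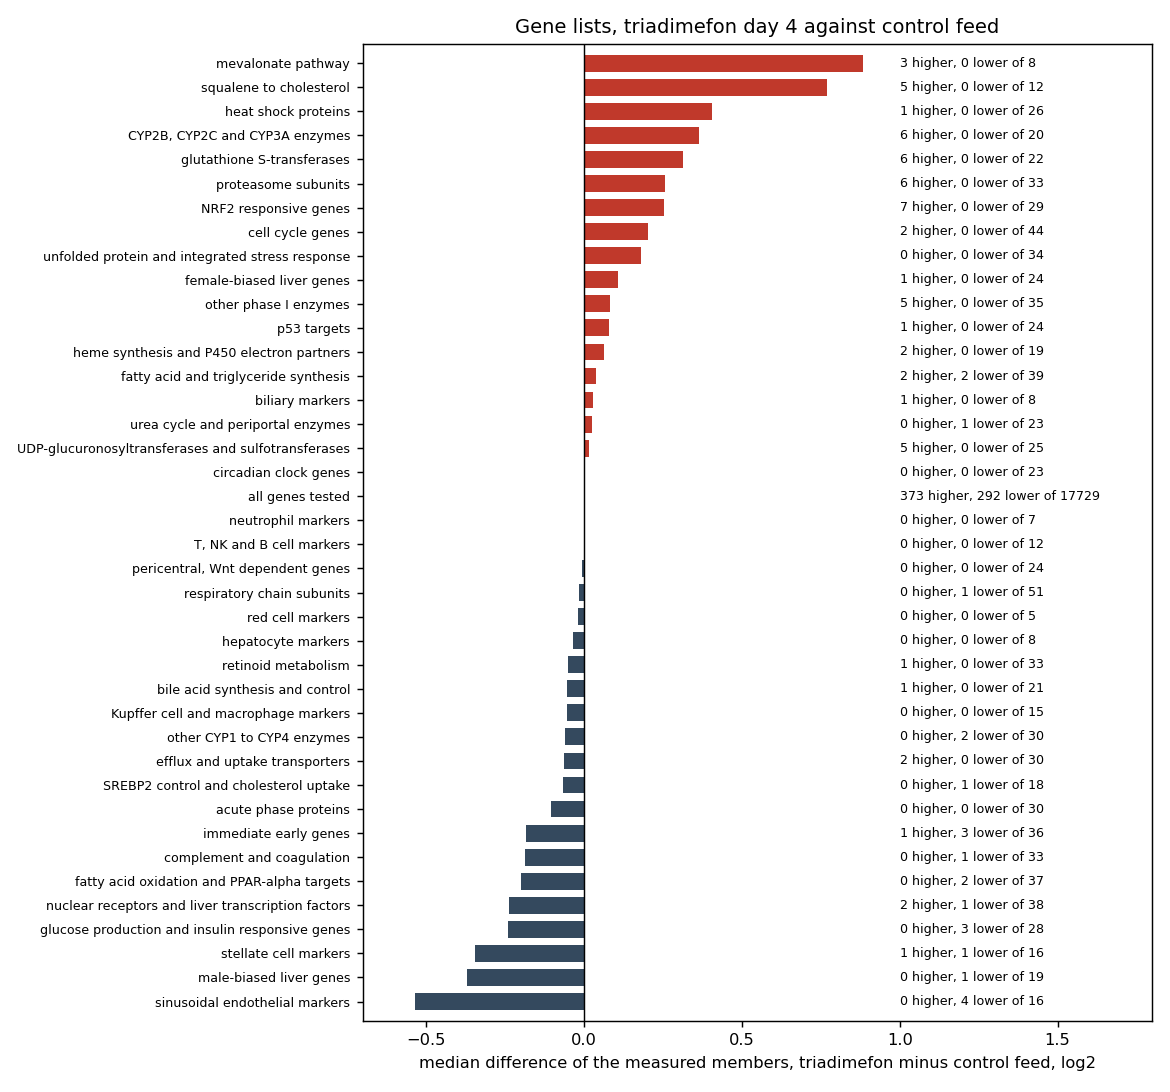
Median difference of the measured members of each gene list, triadimefon minus control feed on day 4 (log2, bars from 0), with the number of members called higher and lower at the right, and the row of all genes tested for comparison. The cholesterol lists have the highest medians (0.88 and 0.77) and the sinusoidal endothelial markers the lowest (-0.53), against 0.00 for all genes.

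Set against propiconazole on the same day, Cyp2c65 was lower and Mvk higher with triadimefon, while for Cyp2c55 and Cyp2b10 no difference passed. The doses differed, 1800 ppm of triadimefon and 2500 ppm of propiconazole, and both groups share the control arrays, so the changes are given side by side. In the direct comparison 152 genes were higher (0.857%) and 174 lower (0.981%) with triadimefon, 1.84% in all (5969 and 97 as deposited, 169 and 101 with median scaling). Propiconazole replicate 2 stood apart by signs of short RNA (a Gapdh 3′ minus 5′ difference of 6.39, against -0.10 to 0.01 on the triadimefon arrays), and without it 87 genes were higher and 78 lower. Against control feed, propiconazole had 1305 genes higher (7.36%) and 1158 lower (6.53%), 13.9% in all, and without that array 798 higher and 871 lower. Cyp2c55 changed by 5.24 with triadimefon and 5.57 with propiconazole, a difference of -0.34 with a 95% interval of -0.98 to 0.31. Cyp2b10 changed by 4.43 and 4.80 (difference -0.36, interval -1.28 to 0.55), and Alas1 by 3.24 and 3.85 (difference -0.61, adjusted p = 0.46). The intervals leave room for differences of about 1 unit in either gene. Cyp2c65 changed by 2.44 with triadimefon and 4.69 with propiconazole, and the difference of -2.25 passed (adjusted p = 0.0042, and -1.83, adjusted p = 0.034, without propiconazole replicate 2). The controls of Cyp2c65 lay below background, so its changes here and in the comparisons that follow are differences of log2(intensity + 16) values and not measured folds.

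Of the 20 cholesterol genes 2 were higher with triadimefon than with propiconazole and 0 lower (median 0.68), namely Mvk and Erg28, with 11 at an unadjusted p under 0.05. Mvk changed by 2.49 with triadimefon and -0.88 with propiconazole, a difference of 3.38 (adjusted p = 0.0017). Only 1 control of Mvk was above background, so its changes here and between the days are likewise not measured folds. The propiconazole change of Mvk against control was -0.45 without replicate 2 (limma adjusted p = 0.73). Without propiconazole replicate 2 the difference of Mvk was 2.94 (adjusted p = 0.014), Idi1 joined it (1.15, adjusted p = 0.041) and Erg28 did not pass, and the median was 0.49. Sqle changed by 1.45 with triadimefon and 1.35 with propiconazole, and Cyp51 by 0.96 and 0.68 (differences of 0.10 and 0.29, adjusted p = 0.93 and 0.56). Without propiconazole replicate 2 these differences were 0.45 and 0.60 (adjusted p = 0.62 and 0.30), and the propiconazole change of Cyp51 was 0.37. Against its controls propiconazole itself had 4 of the 20 higher, Sqle, Lbr, Msmo1 and Dhcr7, and 2 lower, and without replicate 2 it had 1 higher, Sqle, and 0 lower. Regulators differed as well. Ppargc1b changed by -1.69 with triadimefon and -3.50 with propiconazole (difference 1.81, adjusted p = 0.029), Ahr, the aryl hydrocarbon receptor, rose by 0.67 with triadimefon and 1.43 with propiconazole (difference -0.76, adjusted p = 0.034), and Ddit3, the stress factor CHOP, changed by 0.41 and 1.70 (difference -1.30, adjusted p = 0.029). Those 3 differences did not pass without propiconazole replicate 2 (adjusted p = 0.16, 0.22 and 0.095), nor without triadimefon replicate 2 (0.087, 0.052 and 0.073). Ahr lost the call also without triadimefon replicate 3 (0.18), and Ppargc1b and Ddit3 without replicate 1 (0.054 and 0.058). The rise of Ahr over control (adjusted p = 0.041) was itself not called without triadimefon replicate 1 or 2 or control replicate 2 or 3 (0.11 to 0.28).

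Between day 4 and day 30 of triadimefon, Alas1 and 5 cholesterol enzymes had a larger change on day 4, Cyp2c65 had a smaller change, and Cyp2c55, Cyp2b10, Cyp26a1 and Gstt3 rose on both days. The Actb 3′ minus 5′ difference, a sign of RNA length, was 0.76 to 0.94 in triadimefon livers and 0.80 to 1.30 in controls on day 4, and 0.42 to 0.47 in triadimefon livers and 0.37 in each control on day 30. The days were fully apart in it, and its part in the differences between days was not tested. Each day had its own controls, and the difference between the changes, day 4 minus day 30, was called higher in 145 genes (0.818%) and lower in 87 (0.491%), 1.31% in all (399 and 44 as deposited). On day 30 427 genes were higher than control (2.41%) and 531 lower (3%), 5.4% in all. Cyp2c55 changed by 5.24 on day 4 and 5.60 on day 30, Cyp2b10 by 4.43 and 5.71, Cyp26a1 by 2.86 and 2.83 and Gstt3 by 3.15 and 2.67, and none of these 4 differences passed (adjusted p = 0.36 to 1). Alas1 changed by 3.24 on day 4 and by 0.26 on day 30, a difference of 2.98 (adjusted p = 0.012). Cyp2c65 went the other way, with 2.44 on day 4 and 5.23 on day 30 (difference -2.78, adjusted p = 0.012). Of the 20 cholesterol genes 5 were higher on day 4 and 0 lower, and 19 differences were positive (median 1.08). Mvk changed by 2.49 on day 4 and -1.12 on day 30 (difference 3.62, adjusted p = 0.013). Sqle changed by 1.45 and -0.30, Idi1 by 1.19 and -0.48, Cyp51 by 0.96 and -0.42 and Msmo1 by 1.02 and -0.26, with differences of 1.75, 1.67, 1.38 and 1.28 (adjusted p = 0.032 to 0.039). On day 30 limma called 0 of the 20, with 1 at an unadjusted p under 0.05 and a median of -0.31. The calls of Sqle, Idi1, Cyp51 and Msmo1 ended without triadimefon replicate 1 or 2 or control replicate 2 or 3 of day 4 (adjusted p = 0.058 to 0.11), while those of Mvk, Alas1 and Cyp2c65 did not end.

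Other genes named above also differed between the days. Foxo1 changed by -1.02 on day 4 and 0.24 on day 30 (difference -1.26, adjusted p = 0.036), Mylip by -1.02 and 0.26 (-1.28, adjusted p = 0.020), Il1r1 by -2.62 and 1.68 (-4.30, adjusted p = 0.0074) and Hspa4 by 0.52 and -0.36 (0.88, adjusted p = 0.019). Of these the call of Il1r1 held without any 1 array of day 4, but its other probe set changed in the opposite direction on day 4. Those of Foxo1, Mylip and Hspa4 ended without triadimefon replicate 1 (adjusted p = 0.11, 0.071 and 0.067), those of Foxo1 and Mylip without control replicate 1 (0.088 and 0.053), those of Mylip and Hspa4 without control replicate 2 (0.063 and 0.064) and that of Foxo1 without control replicate 3 (0.057). The endothelial markers had 0 of 16 differences called by limma, with 8 at an unadjusted p under 0.05 and a median of -0.48.

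Phenobarbital, the standard CAR activator, was fed in an experiment of its own, so experiment and compound cannot be told apart beyond each change from its own controls, and the dose differed (850 ppm). The Actb 3′ minus 5′ difference was 0.33 to 0.37 in phenobarbital livers and 0.28 to 0.38 in their controls, below all day 4 triadimefon arrays and their controls, and its part in these differences was not tested. Phenobarbital had 94 genes higher (0.53%) and 26 lower (0.147%), 0.677% in all. The difference between the changes, triadimefon minus phenobarbital, was called in 8 genes, 4 higher (0.0226%) and 4 lower (0.0226%), 0.0451% in all (173 and 13 as deposited, 14 and 6 with median scaling). Cyp2c55 changed by 5.24 with triadimefon and 5.13 with phenobarbital, Cyp2b10 by 4.43 and 3.56, Gstm3 by 1.44 and 1.71, Ces2a by 0.94 and 0.91 and Abcc3 by 0.93 and 0.94. Alas1 changed by 3.24 with triadimefon and 0.67 with phenobarbital, and the difference of 2.57 had an adjusted p = 0.058. Cyp26a1 changed by 2.86 and 0.50, with a difference of 2.36, a 95% interval of 1.12 to 3.60 and an adjusted p = 0.10. Cyp2c65 changed by 2.44 and 4.72 (difference -2.27, adjusted p = 0.068). None of the 3 passed over all genes. Of the 20 cholesterol genes limma called 0 differences, although 19 were positive, 14 had an unadjusted p under 0.05 and the median was 0.95. Phenobarbital alone had 0 of the 20 called, 1 of them positive (1 at an unadjusted p under 0.05, median -0.15). Among the 8 called differences Plcb3 changed by -2.19 with triadimefon and 0.03 with phenobarbital (difference -2.22, adjusted p = 0.0034, on a scale where its triadimefon arrays lie at the floor and below background), and Strap, a scaffold protein of TGF-beta signalling and RNA assembly, by 0.41 and -0.26 (0.66, adjusted p = 0.0063). Both calls held without any 1 conazole array of day 4.

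**Figure D5:**
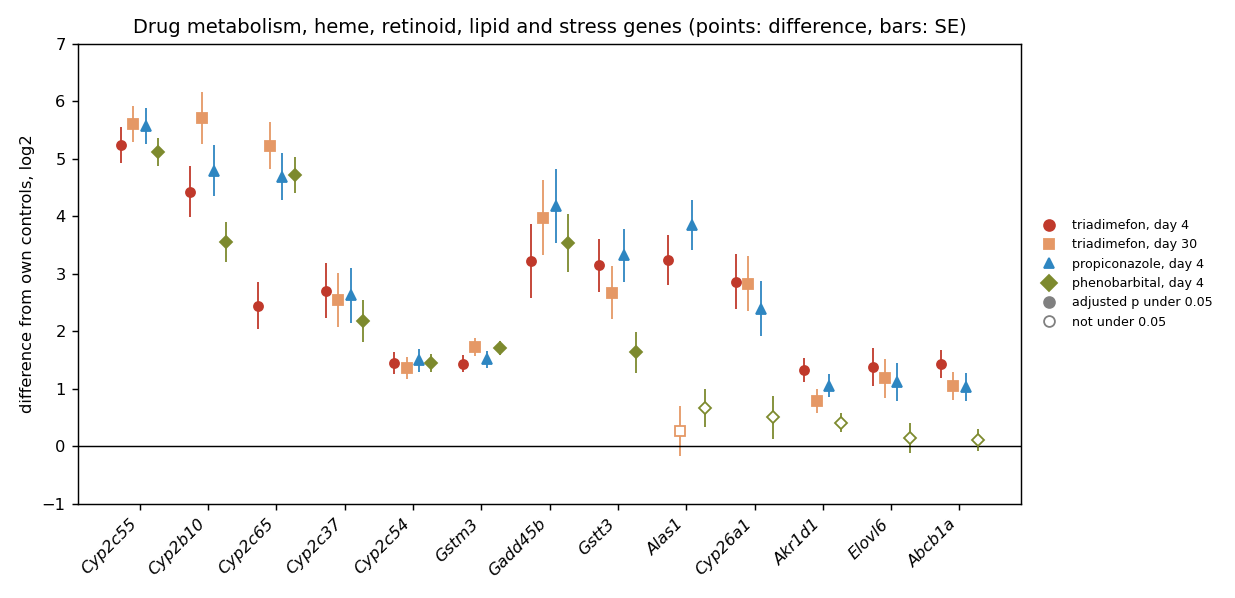
Differences from their own controls of 13 drug metabolism, heme, retinoid, lipid (Elovl6) and stress (Gadd45b) genes, for triadimefon on day 4, triadimefon on day 30, propiconazole on day 4 and phenobarbital on day 4 (log2, bars are SE, filled points have an adjusted p under 0.05). Cyp2c55 lies between 5.13 and 5.60 in all 4, whereas Alas1 is filled for triadimefon and propiconazole on day 4 (3.24 and 3.85) and not for triadimefon on day 30 or phenobarbital (0.26 and 0.67).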

How the data were processed

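Total RNA of whole liver was amplified, labelled with biotin and hybridised to Affymetrix mouse 430 2.0 arrays, 1 per replicate, per the labels' protocols. The deposited values are linear intensities, 1 for each probe set on an array, and 21.15% of them lie below 0. What software summarised them is not given in the sources. Arrays have no read depth, and their number and signal over background limit the precision. Quantile normalization was applied over the 38 arrays, negative values became 0 and log2(value + 16) was taken, which understates changes of dim genes. Of 45101 probe sets, 34958 had 1 gene symbol in the platform annotation, 932 had several and 9211 were unlisted. Each gene was represented by its probe set with the highest mean, and 465 constant genes were left out. limma 3.58.1 (R 4.3.3) fitted 1 mean per group, with an intensity trend (28 residual and 2.91 prior degrees of freedom), and Benjamini-Hochberg adjustment over 17729 genes. The code was tested on simulated data.

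Background was log2 6.13 (intensity 54.2), set from 39 olfactory receptor genes (percentile 95 of their mean levels). Where a gene lay under it on every array of 1 group, a lower bound is given (at least N-fold), for which values of that group under background were raised to it, array by array. Errors of changes are SE. P-values rest on the spread between arrays within groups, pooled over all 38 arrays, and not on that of the 6 arrays alone. The comparison, its 39 lists (877 of 987 genes measured, 31 pathways and 8 marker lists) and the settings were chosen with earlier results of these data known. Named genes were the 15 genes with the largest rise and the 15 with the largest fall, called and without overlap, up to 6 called members of each list (2 where none was called), a list of always named genes, and 6 differences each way in the other comparisons, leaving out clone-type names and probe sets ending in _x_at. Members outside it, such as the other cholesterol genes, are given as parts of their list. The replicate numbers did not pair the arrays (correlations of same-numbered deviations of 0.02, -0.02 and -0.03). Alternatives were other normalizations, offsets, filters, probe set rules, array weights, fits on fewer arrays, a replicate block and each array left out.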

Additional observations from a re-analysis of the deposited data

Results flagged for a closer look

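Genes whose change differed between days or between compounds, by a test of the difference itself, are given here with that difference and the limma adjusted p. For triadimefon, day 4 minus day 30, the differences were 3.62 for Mvk (0.013), 3.30 for Inhba (0.034), 2.98 for Alas1 (0.012), 2.78 for Armc6 (0.0052), 2.57 for Necap2 (0.0074) and 2.49 for Rab11fip1 (0.028). In the other direction they were -4.30 for Il1r1 (0.0074), -3.16 for Neurl4 (0.028), -3.14 for Fbxw9 (0.044), -2.90 for Cnga2 (0.011), -2.82 for Mnt (0.011) and -2.78 for Cyp2c65 (0.012). The other probe set of Il1r1 changed in the opposite direction on day 4. Inhba, a subunit of activin, had 7.75, 7.08 and 7.90 in triadimefon livers on day 4 and 4.00, 6.80 and 4.00 in their controls, so that 1 of the 3 controls was near the treated arrays. Armc6 changed by 0.43 on day 4 and -2.35 on day 30, Fbxw9 by -0.39 and 2.75, and Necap2 by 1.08 and -1.49, so their differences rest mainly on day 30. The calls of 4 of these genes ended when 1 of the day 4 arrays was left out. Inhba lost its call without triadimefon replicate 1 or 3 or control replicate 1 or 3 (adjusted p = 0.089 at most), Neurl4 without triadimefon replicate 1 or 2 or control replicate 2 (0.090 at most), Fbxw9 without triadimefon replicate 1 or 3 or any of the 3 controls (0.088 at most), and Rab11fip1 without triadimefon replicate 2 or control replicate 1 (0.056 at most).

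For the triadimefon change minus the phenobarbital change on day 4, the differences were 1.99 for Slc5a10 (0.0068), 1.51 for Spata16 (0.0034), 1.35 for Cyp4f39 (0.047), 0.66 for Strap (0.0063), -2.32 for Itpkb (0.015), -2.22 for Plcb3 (0.0034) and -1.09 for Grik4 (0.029). Spata16, a testis gene, had 5.62, 5.60 and 5.69 in triadimefon livers and 4.09, 4.00 and 4.25 in controls, and Grik4, a glutamate receptor subunit, 5.08, 4.50 and 4.13 against 5.79, 5.83 and 5.68 in controls, all below background. Leaving out 1 array ended the call of Itpkb (triadimefon replicate 1 or control replicate 1 or 2, adjusted p = 0.056 at most), of Cyp4f39 (triadimefon replicate 1 or control replicate 1 or 2, 0.097 at most) and of Grik4 (triadimefon replicate 3 or control replicate 1 or 2, 0.059 at most).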

How the results depend on the processing

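In triadimefon livers on day 4, 665 genes were called against control (373 higher) and 73 of them were list members. Values as deposited gave 1674 and 131, with 1562 higher, median scaling 387 and 42, with 260 higher, and quantile normalization of the 6 arrays alone 236 and 37. The fit on the 6 arrays alone gave 0 and 0 (2553 at an unadjusted limma p under 0.05), on the 18 conazole arrays 19 and 10, with 15 higher, and on the 12 conazole arrays without propiconazole, chosen after seeing the data, 65 and 11. The fit without propiconazole day 4 replicate 2 gave 1280 and 118, and without all 3 propiconazole day 4 arrays, also chosen after seeing the data, 1521 and 145. That group's mean variance was 0.441, against 0.108 in triadimefon and 0.092 in control livers. Leaving out 1 array gave 216 to 852 genes and 26 to 105 list members. The lowest count came without triadimefon replicate 1. Without control replicate 1 it was 438, and without control replicate 2 it was 333.

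For triadimefon against propiconazole (326 called, 152 higher), values as deposited gave 6066, of which 5969 were higher, and median scaling 270, of which 169 were higher. Genes above background gave 231, of which 141 were higher, the fit on the arrays compared 0 (760 at an unadjusted limma p under 0.05), and leaving out propiconazole replicate 2 or 1 triadimefon array 101 to 183. For day 4 minus day 30 (232 called, 145 higher), values as deposited gave 443, of which 399 were higher, median scaling 64, the arrays compared alone 11, the fit without propiconazole replicate 2 gave 608, and leaving out 1 array 104 to 264. The counts without triadimefon replicate 1 (107) and control replicate 2 (104) were the lowest. For triadimefon minus phenobarbital (8 called, 4 higher), values as deposited gave 186, of which 173 were higher, median scaling 20, of which 14 were higher, genes above background 1, the arrays compared alone 167, the fit without propiconazole replicate 2 gave 113, and leaving out 1 array 10 to 46.

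With the replicate block, although the numbers did not pair the arrays, 416 genes were called against control (234 higher), 135 against propiconazole, 99 between days, and 0 against phenobarbital (1741 at an unadjusted limma p under 0.05). No change of a named gene reversed sign under these settings. The cause of the other shifts was not tested.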
